A study of Mus musculus with 8 samples.

Results

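A set of 10 cytochrome P450 genes from the Cyp2d, Cyp2e, Cyp2f and Cyp2j subfamilies was compared between regenerating mouse livers with and without knockdown of Tbl1xr1. The set was given by name, as the Cyp2 genes outside the a, b and c subfamilies, and holds Cyp2d9, Cyp2d10, Cyp2d22, Cyp2d26, Cyp2d40, Cyp2e1, Cyp2f2, Cyp2j5, Cyp2j6 and Cyp2j9, which are 10 of the 55401 genes in the tables. All 10 had enough counts to be tested, among 13908 genes tested in all. The libraries came from total RNA of whole liver of C57BL/6J mice. All 8 samples came from mice that had received an adeno-associated virus carrying a short hairpin RNA to hepatocytes 4 weeks before a 2/3 partial hepatectomy (PHx), and liver was collected on day 2 after surgery. In 4 libraries the hairpin was shNC, the control, and in 4 it was shTbl1xr1, aimed at Tbl1xr1, a subunit of the NCoR and SMRT corepressor complexes. The sources used here do not give the age of the mice or the promoter that drives the hairpin, and both groups carry a virus and surgery. Replicate numbers are all that the labels give, with no word on whether libraries came from different mice, so the p-values reflect the spread among libraries, part of which may be technical.

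Cytochromes P450 are haem enzymes of the endoplasmic reticulum that insert an oxygen atom into drugs, steroids and fatty acids, with electrons passed on by the reductase Por. Hepatocytes carry most of these enzymes in the body, and their amounts depend on the position of the cell in the lobule: Cyp2e1 is a pericentral enzyme, made around the central vein, and Cyp2f2 a periportal one, made around the portal tract. Regenerating liver is known to lower many of its drug-metabolising enzymes while hepatocytes divide.

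The 5 Cyp2d genes lie in 1 cluster on chromosome 15, and 3 of them share a stretch of sequence just upstream of their starts. The sequences are from RefSeq promoters on GRCm38.p6, the assembly that the build mm10 denotes, and 9 of the 10 genes matched by symbol. Each line gives 60 bases, 5′ to 3′ on the gene's strand, and the capitals mark the shared stretch of 19 bases. They are shown because Cyp2d40 and its relatives with the same stretch had different values in the libraries described below. The stretch was taken as the longest that the 250 upstream bases of these 3 genes have in common, so its presence in all 3 is given by the choice.
Cyp2d9, chr15:82452279-82452338, plus strand: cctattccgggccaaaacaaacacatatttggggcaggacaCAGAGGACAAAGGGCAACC
Cyp2d10, chr15:82407236-82407295, minus strand: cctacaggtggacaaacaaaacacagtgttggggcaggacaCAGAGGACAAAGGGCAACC
Cyp2d40, chr15:82764224-82764283, minus strand: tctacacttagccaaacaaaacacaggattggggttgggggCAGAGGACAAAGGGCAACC
The stretch CAGAGGACAAAGGGCAACC was found in 3 of 32851 promoters of the same length, or 0.00913%, and these 3 are the only ones. The windows are intergenic for Cyp2d10 and Cyp2d40, while the Cyp2d9 window lies within the annotated gene, some of whose transcripts start farther upstream, and its last 5 bases are in the first exon of the longest coding transcript in GENCODE. Over the 250 bases before the RefSeq start, Cyp2d9 and Cyp2d10 were identical at 85.0% of 246 aligned bases, Cyp2d9 and Cyp2d40 at 82.8% of 180, and Cyp2d9 and Cyp2d26 at 65.7% of 213. Cyp2d11, a gene outside the set, was identical to Cyp2d9 at 91.9% of 234 aligned bases. It has no exact match to the 19 bases but shares another stretch of 32 bases with Cyp2d9 and Cyp2d10. The letters TATAAA, the core of a TATA box, stood on either strand in the upstream 250 bases of Cyp2d9, Cyp2d10, Cyp2d26, Cyp2d40, Cyp2e1 and Cyp2j5, against 12.4% of all promoters. The letters CAAAGTCC, a core of HNF4 sites, were found for none, against 1.2% of promoters. Both were searched on both strands and do not overlap each other, and a match is a description of the sequence.

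The libraries differ in depth. The 4 shNC libraries held 25811763 to 27537235 expected counts, shTbl1xr1 1 and 2 held 10895508 and 10728583, and shTbl1xr1 3 and 4 held 26976205 and 36720879. shTbl1xr1 1 and 2, the shallow pair from here on, also had 11.3% and 14.8% of their counts in mitochondrially encoded genes against 4.52% to 7.34% in the other 6, and on the first principal component (59.3% of the variance) they stood at 86.0 and 86.4 against -39.7 to -9.29. Tbl1xr1 had 27.2 to 35.9 CPM (counts scaled to library size with the TMM factor of edgeR) in shNC and 2.38, 2.07, 9.24 and 15.9 in shTbl1xr1 1 to 4, so the groups did not overlap (two-sided exact permutation test over 70 arrangements, p = 0.0286, the smallest this design can give; edgeR adjusted p = 0.290). The hepatocyte genes Alb, Apoa1, Ttr, Fga, Tat, Hpd and Serpina1a summed to 59010 to 77770 CPM in shNC, 85290 and 95610 in the shallow pair and 54450 and 77060 in the deeper pair. These genes did not move alike in the shallow pair. On CPM, Apoa1, Ttr, Hpd and Serpina1a lay above every shNC library, Alb and Fga within the shNC range, and Tat below it. By TPM, the deposited level per transcript length, Hpd did not lie above shNC. It was at 914 and 788 in the shallow pair, inside the shNC range of 742 to 1131. The other genes of this list were not compared on TPM. In bulk tissue, fewer cells of a type and less RNA per cell cannot be told apart.

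No member passed the test between the groups, edgeR's quasi-likelihood test with Benjamini-Hochberg adjustment over all 13908 genes (0 of 10, adjusted p 0.415 to 0.988), where 0.0503% of the genes tested passed. DESeq2 also passed 0 of 10 members, where it passed 2.12% of the genes. The members' median log2 fold change, shTbl1xr1 over shNC, was 0.44, against 0.01 over all genes tested. The fold change was positive for 9 members and negative for Cyp2j9, and 50.6% of all genes tested had a positive one. Only Cyp2d22 had an unadjusted p under 0.05, and 11.6% of all genes did. For no member did the 4 shTbl1xr1 libraries all lie above, or all below, every shNC library, while 7.25% of all genes tested had groups that did not overlap. The 2 pairs of shTbl1xr1 libraries stood apart instead. On TMM-scaled CPM, 8 of 10 members were higher in both shallow libraries than in every shNC library, as were 29.2% of all genes tested. On TPM, a scale described below, the shallow pair lay above every shNC library for none of the members. The share of all genes for which that held on TPM was not counted. In a limma fit of TPM the median log2 fold change over all genes was -0.34. Both deeper libraries lay within the shNC range of CPM for Cyp2d9, Cyp2d10, Cyp2e1 and Cyp2j6.

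**Figure D1:**
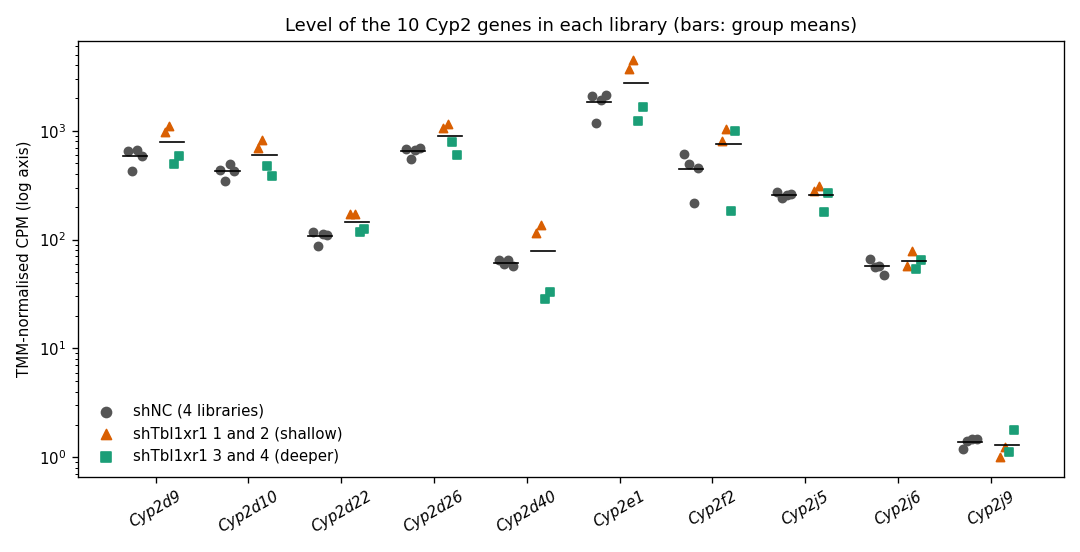
TMM-normalised CPM (log axis) of the 10 genes in each library, with shNC as circles, the shallow shTbl1xr1 pair as triangles, the deeper pair as squares and bars at the group means. For Cyp2d9, Cyp2d10, Cyp2d22, Cyp2d26, Cyp2d40, Cyp2e1, Cyp2f2 and Cyp2j5 the triangles lie above every circle, and for Cyp2d40 the squares lie below every circle.

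Among the members, Cyp2e1 was the most abundant in each of the 8 libraries by TPM, the deposited level per transcript length. Its TPM was 1554, 965, 1661 and 1756 in shNC 1 to 4 and 1541, 1628, 1047 and 1411 in shTbl1xr1 1 to 4, and it took 28.4% to 47.3% of the members' summed TPM. Cyp2d10, Cyp2d9 and Cyp2d26 came next, with shNC means of 741 ± 182, 663 ± 136 and 604 ± 77.1 TPM (SD, n = 4). These 3 neighbours in the order do not differ beyond their spread, and their order changed from library to library. Cyp2f2 followed at 346 ± 111 TPM and Cyp2j5 at 156 ± 9.05, also in shNC. Cyp2d40 (84.7 ± 7.16 TPM) stood above Cyp2d22 (65.6 ± 8.97 TPM) in the 4 shNC libraries and the shallow pair, and below it in shTbl1xr1 3 and 4. Cyp2j6 was at 21.6 ± 2.15 TPM and Cyp2j9 at 0.965 ± 0.155 TPM in shNC, in the last places in all 8 libraries.

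The Cyp2d subfamily oxidises steroids and many amine drugs, and its mouse genes are more numerous than the single active gene of humans. Cyp2d9 (ENSMUSG00000068086.6; mm10 chr15:82433437-82456845, plus strand) encodes a steroid 16-alpha-hydroxylase that acts on testosterone and is known for higher levels in male than in female liver. It had 657, 428, 660.5 and 585 CPM in shNC 1 to 4 and 980.2, 1104, 499 and 580.1 CPM in shTbl1xr1 1 to 4. The shallow pair lies above all shNC libraries and the deeper pair among them, so the groups overlap. The means were 583 ± 109 and 791 ± 296 CPM (SD, n = 4 each), with a log2 fold change of 0.44 (SE 0.30, edgeR adjusted p = 0.533).

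Cyp2d10 (ENSMUSG00000094806.2; mm10 chr15:82402846-82407195, minus strand), the closest relative of Cyp2d9 by upstream sequence among the members, had 433, 348, 492 and 422 CPM in shNC and 698, 823, 471 and 380.4 CPM in shTbl1xr1 1 to 4. Again only the shallow pair lies above the shNC libraries. The log2 fold change was 0.49 (SE 0.27, edgeR adjusted p = 0.471). Fragments of these genes can be hard to place: 14.8% of the 100-base windows of the longest Cyp2d10 transcript and 9.86% of those of Cyp2d9 occur unchanged in transcripts of other genes, so the authors' sharing of fragments between near-identical copies makes both values uncertain. The shares were 0.225% for Cyp2d22, 0.375% for Cyp2d26, 1.5% for Cyp2e1 and 0 for the other 5 members.

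Cyp2d26 (ENSMUSG00000022445.7; mm10 chr15:82790101-82794294, minus strand) had 676, 555, 659.9 and 696 CPM in shNC and 1052, 1145, 787 and 603 CPM in shTbl1xr1 1 to 4. Both shallow libraries and shTbl1xr1 3 lie above the shNC range, and shTbl1xr1 4 lies within it. Its log2 fold change was 0.47 (SE 0.24, edgeR adjusted p = 0.448). Cyp2d22 (ENSMUSG00000061740.8; mm10 chr15:82370527-82380260, minus strand), often regarded as the mouse counterpart of the human drug-metabolising gene CYP2D6, had 118, 87.1, 113 and 110.5 CPM in shNC and 171, 172, 117 and 125 CPM in shTbl1xr1. It was the member with the smallest p, with a log2 fold change of 0.45 (SE 0.19, edgeR unadjusted p = 0.0404, adjusted p = 0.415), and shTbl1xr1 3 lies inside the shNC range.

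Cyp2d40 (ENSMUSG00000068083.2; mm10 chr15:82759833-82764183, minus strand) had the pattern that sets the pairs furthest apart. It had 64.4, 60.1, 64.6 and 56.8 CPM in shNC, a narrow range, and 115, 137, 28.5 and 33.0 CPM in shTbl1xr1 1 to 4. The shallow pair lies above every shNC library and the deeper pair below every one, a pattern that 503 of the genes tested (3.62%) had. The means were 61.5 ± 3.75 and 78.3 ± 55.7 CPM (SD, n = 4 each), and the log2 fold change over all 8 libraries was 0.34 (SE 0.47, edgeR adjusted p = 0.758). With the shallow pair alone against shNC the log2 fold change on TMM-scaled counts was 1.03 (edgeR adjusted p = 0.000341). With the deeper pair alone it was -1.002 (edgeR adjusted p = 0.0992), so on this scale the direction depends on the libraries used. By TPM, Cyp2d40 was at 80.05 to 95.28 in shNC and at 77.98, 81.78, 41.15 and 47.03 in shTbl1xr1 1 to 4. There the shallow pair does not lie above the shNC libraries, while the deeper pair still lies below every one.

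Set against a neighbouring gene in the same library, a measure that no scaling of the library can move, Cyp2d40 was below its shNC values in the deeper pair. Its counts were 9.53%, 10.8%, 9.79% and 8.16% of those of Cyp2d26 in shNC 1 to 4, 10.9% and 12.0% in the shallow pair, and 3.62% and 5.47% in shTbl1xr1 3 and 4. The shallow pair is at and just above the top of the shNC values and the deeper pair is well below their lowest. Cyp2d40 took 3.01% to 4.01% of all Cyp2d counts in shNC, 3.79% and 4.03% in the shallow pair, and 1.49% and 1.89% in the deeper pair. The other large members had steadier shares: Cyp2d9 took 26.1% to 33.4% of Cyp2d counts over the 8 libraries, Cyp2d10 21.7% to 24.6%, Cyp2d22 5.07% to 7.15% and Cyp2d26 32.7% to 41.1%. Cyp2d9 and Cyp2d10 carry the same 19 bases upstream as Cyp2d40, and both had deeper-pair values within their shNC ranges. Whether the shared bases have a part in the levels of these genes was not tested.

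Outside the set, 23 further genes of the 4 subfamilies are annotated. Of these, 15 were at 0 in all libraries and the highest value was 17.9 CPM, and the 5 Cyp2d members held 98.4% to 99.6% of all Cyp2d counts. Of the 23, 4 could be tested and 0 passed, against 0.0503% of all genes tested. Cyp2d12, picked for its small p once the values were known, had 0.0718, 0.0980, 0.0996 and 0.204 CPM in shNC and 1.502, 1.38, 0.451 and 0.843 CPM in shTbl1xr1 1 to 4. Its groups do not overlap, as was so for 7.25% of genes, and its log2 fold change of 2.98 (SE 0.53, edgeR adjusted p = 0.129) rests on 2 to 6 counts a library in shNC and 10 to 34 in shTbl1xr1, the group through which it entered the test.

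Cyp2e1 (ENSMUSG00000025479.9; mm10 chr7:140763739-140774987, plus strand) oxidises ethanol and turns paracetamol into its reactive metabolite. It had 2092, 1181, 1903 and 2109 CPM in shNC and 3696, 4416, 1232 and 1665 CPM in shTbl1xr1 1 to 4. The shallow pair lies above every shNC library and the deeper pair inside the shNC range, whose lowest library is shNC 2. The means were 1821 ± 437 and 2752 ± 1544 CPM (SD, n = 4 each), with a log2 fold change of 0.60 (SE 0.42, edgeR adjusted p = 0.545).

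Cyp2f2 (ENSMUSG00000052974.8; mm10 chr7:27119909-27133660, plus strand), best known for activating naphthalene in lung club cells, varied most among the shNC libraries, with a coefficient of variation of 37.0% against 4.84% to 23.98% for the other 9 members. It had 607, 491, 218 and 451 CPM in shNC and 796, 1045, 185 and 987 CPM in shTbl1xr1. All shTbl1xr1 libraries except shTbl1xr1 3 lie above the shNC range, and shTbl1xr1 3 lies below it. The log2 fold change of 0.77 was the largest of the set, with an SE of 0.50 and an edgeR adjusted p of 0.519. The lung club cell markers Scgb1a1, Scgb3a2 and Scgb3a1 were at 0 in all 8 libraries.

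The pericentral and periportal enzymes did not keep a fixed ratio. Cyp2e1 TPM was 3.55, 2.46, 8.97 and 4.76 times Cyp2f2 TPM in shNC 1 to 4 and 4.95, 4.53, 6.76 and 1.73 times in shTbl1xr1 1 to 4. The highest ratio was in an shNC library and the lowest in an shTbl1xr1 library, and the groups overlap. Of 12 pericentral genes fixed as a list (Glul, Axin2, Lgr5, Rhbg and others), 0 passed the test, with 7 positive and 5 negative log2 fold changes and a median of 0.25. Among the negative ones, Axin2 was at -0.64 and Lgr5 at -0.67. Among the positive ones, Cyp1a2 was at 1.41 and Slc1a2 at 0.62. Rhbg, an ammonium transporter, had the smallest p, with 8.33 ± 2.58 CPM in shNC and 21.9 ± 10.7 in shTbl1xr1 (SD, n = 4 each; log2 fold change 1.38, SE 0.39, edgeR adjusted p = 0.320). Of 11 periportal genes, 0 passed, with a median of 0.44, and Ass1 of the urea cycle had the smallest p (log2 fold change 0.55, SE 0.22, edgeR adjusted p = 0.412). On TPM, Ass1 was at 1887 and 1243 in the shallow pair, not above the shNC range of 1850 to 2595. In the deeper pair it was at 3274 and 3300, above that range. On TMM-scaled CPM, the median log2 level relative to shNC was 0.63 in the shallow pair and -0.26 in the deeper pair for the pericentral genes. For the periportal ones it was 0.21 and 0.41.

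**Figure D2:**
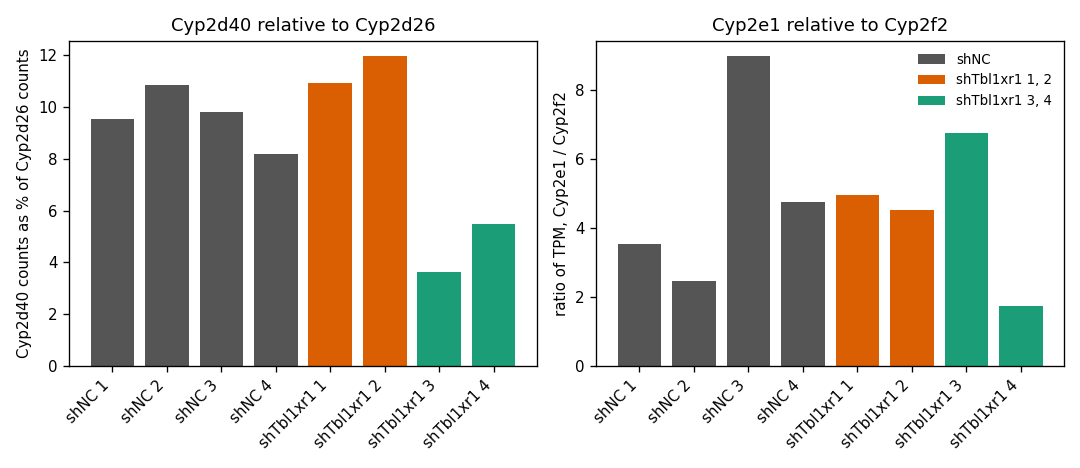
Bars give Cyp2d40 counts as a percentage of Cyp2d26 counts (left) and the ratio of Cyp2e1 to Cyp2f2 TPM (right) in each library. The left bars are lowest in shTbl1xr1 3 and 4, at 3.62% and 5.47%, and the right bars run from 1.73 in shTbl1xr1 4 to 8.97 in shNC 3.

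The genes nearest in pattern to these enzymes were sought among 2667 non-member genes with a mean of at least 50 CPM, by the root mean square difference in log2 level relative to the shNC mean over the 8 libraries. For Cyp2e1 they were Emc6, Pex16 and Ndufa6, at 0.200, 0.200 and 0.216, where the median candidate was at 0.586. For Cyp2f2 they were Mbl2, Cebpa and Slc46a3, at 0.374, 0.403 and 0.404, where the median candidate was at 0.872.

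The Cyp2j enzymes turn arachidonic acid into epoxides and hydroxy acids. Cyp2j5 (ENSMUSG00000052520.7; mm10 chr4:96628773-96664154, minus strand), an epoxygenase of liver and kidney, had 271, 241, 254 and 259.5 CPM in shNC and 277, 308, 179 and 267 CPM in shTbl1xr1. The shallow pair is just above the shNC range and shTbl1xr1 3 below it. The log2 fold change was 0.01 (SE 0.20, edgeR adjusted p = 0.988), with a 95% confidence interval of -0.43 to 0.45. The kidney tubule markers Umod, Slc34a1 and Aqp2 summed to 0.0644 CPM at most in any library.

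Cyp2j6 (ENSMUSG00000052914.4; mm10 chr4:96516138-96553661, minus strand) had 65.9, 56.2, 57.7 and 47.6 CPM in shNC and 57.1, 78.0, 54.1 and 64.3 CPM in shTbl1xr1. The groups overlap, with 1 shTbl1xr1 library above the shNC range, and the log2 fold change was 0.16 (SE 0.17, edgeR adjusted p = 0.695). Cyp2j9 (ENSMUSG00000015224.10; mm10 chr4:96568429-96591578, minus strand), better known from brain, had 1.18, 1.40, 1.46 and 1.46 CPM in shNC and 1.001, 1.24, 1.13 and 1.79 CPM in shTbl1xr1. It rests on as few as 8 counts in a library, and its log2 fold change of -0.07 (SE 0.29, edgeR adjusted p = 0.937) has a 95% confidence interval of -0.71 to 0.58. With the counts of all Cyp2j genes summed, the log2 fold change was 0.04 (SE 0.19, edgeR adjusted p = 0.945), and with all Cyp2d genes summed it was 0.45 (SE 0.28, edgeR adjusted p = 0.503). With library size alone in place of TMM, the Cyp2d sum was at 0.06, and with 1 surrogate variable at 0.084.

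The depth pairs were then compared with shNC one at a time, a comparison of 2 libraries against 4. With the shallow pair, 7 of 10 members were higher (TMM-scaled counts, edgeR adjusted p under 0.05), where 21.5% of 14314 genes were. These were Cyp2d9 (log2 fold change 0.83), Cyp2d10 (0.84), Cyp2d22 (0.68), Cyp2d26 (0.76), Cyp2d40 (1.03), Cyp2e1 (1.15) and Cyp2f2 (1.06), the last with an edgeR adjusted p of 0.0496. The Cyp2j genes did not pass, at 0.19 for Cyp2j5, 0.24 for Cyp2j6 and -0.30 for Cyp2j9. With the deeper pair, 0 of 10 members passed, where 0.0478% of 14645 genes did. The log2 fold changes were then -0.11 for Cyp2d9, 0.01 for Cyp2d10, 0.18 for Cyp2d22, 0.10 for Cyp2d26, -0.33 for Cyp2e1 and 0.40 for Cyp2f2. The 2 comparisons share their shNC libraries, and both pairs have Tbl1xr1 below every shNC library. No shNC library is as shallow, so depth and mitochondrial share cannot be told apart from the hairpin in that pair.

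**Figure D3:**
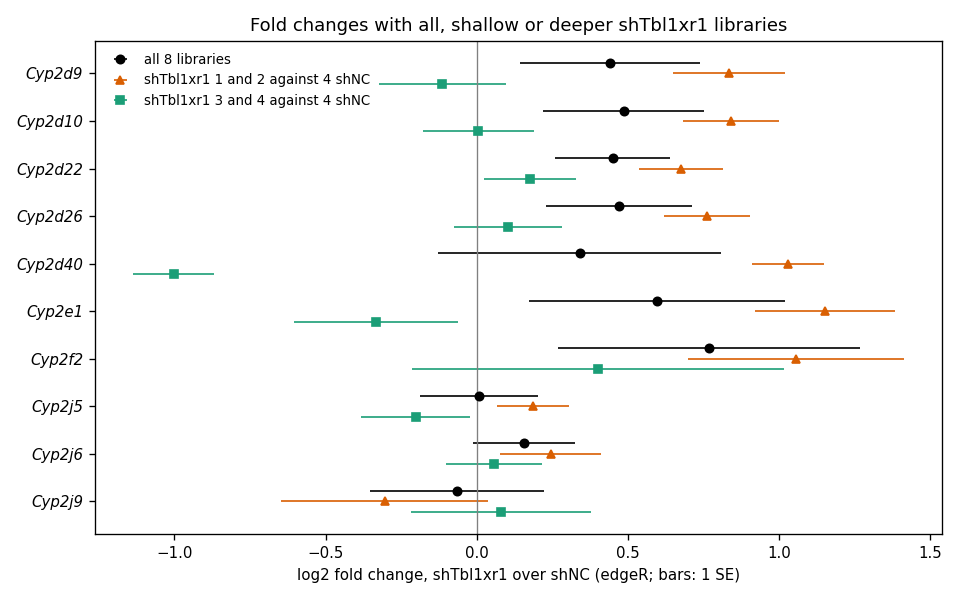
Log2 fold change of each gene, shTbl1xr1 over shNC, from edgeR with all 8 libraries (circles), with the shallow shTbl1xr1 pair (triangles) and with the deeper pair (squares), with bars of 1 SE. The triangles of the 5 Cyp2d genes, Cyp2e1 and Cyp2f2 lie between 0.68 and 1.15, and the square of Cyp2d40 lies at -1.002.

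The fold changes differed with the scale of measurement, both those of the members and the median over all genes. On TPM the group mean was lower in shTbl1xr1 for 9 of 10 members, all but Cyp2f2, whereas on TMM-scaled CPM it was higher for 9, all but Cyp2j9. For Cyp2d10 the TPM was 558, 649, 977 and 781 in shNC and 352, 360.1, 905 and 659 in shTbl1xr1 1 to 4, which puts the shallow pair below every shNC library instead of above. On TPM the shallow pair also lay below every shNC library for Cyp2d9, Cyp2d22, Cyp2d26, Cyp2j5, Cyp2j6 and Cyp2j9. The share of all genes tested whose shallow pair lay below shNC on TPM was not counted. For Cyp2e1 and Cyp2f2 it lay within the shNC range. In a limma fit of log2(TPM + 1), the log2 fold changes ran from -0.54 for Cyp2j5 to 0.07 for Cyp2f2 with 0 of 10 passing, where 0.00719% of genes passed and the median over all genes was -0.34. Relative to that median, Cyp2d9 was at 0.04, Cyp2d22 at 0.13, Cyp2d26 at 0.20, Cyp2e1 at 0.28 and Cyp2f2 at 0.40, with the same sign as on counts. The other 5 had the opposite sign relative to it, with Cyp2d10 at -0.13, Cyp2d40 at -0.17, Cyp2j5 at -0.20, Cyp2j6 at -0.0083 and Cyp2j9 at 0.11. The mean effective length behind a count was 1508 and 1464 bases in the shallow pair and 1886 to 2171 bases in the other 6 libraries, and the TMM factors were 0.734 and 0.675 against 1.08 to 1.16. The part of these differences in the members' values was not tested.

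Cyp2d10 and Cyp2d9 also differed between libraries in their deposited length, the mean length of a gene's transcripts weighted by their estimated abundance. For Cyp2d10, with 6 annotated transcripts, it was 1140, 923, 930.3 and 946 bases in shNC 1 to 4 and 1493, 1513, 935 and 1004 bases in shTbl1xr1 1 to 4. The shallow pair stands above all other libraries, as it did for 22.0% of 12050 genes with several transcripts. The mean of the pair was 1.53 times that of the other 6, a ratio reached by 1.65% of those genes, whose median was 1.002. For Cyp2d9, with 9 transcripts, the lengths were 1558, 1272, 1325 and 1327 bases in shNC and 1634, 1638, 1373 and 1369 bases in shTbl1xr1, a ratio of 1.19. The ratios of Cyp2d22, Cyp2d26, Cyp2d40, Cyp2e1, Cyp2f2 and Cyp2j9 were between 0.969 and 1.05, and Cyp2j5 and Cyp2j6 have 1 transcript each. For Cyp2d9, Cyp2d26 and Cyp2f2 the shallow pair also stands above all other libraries, by small margins for the last 2. When the deposited effective lengths, not the lengths above, entered the edgeR fit as an offset, the log2 fold change of Cyp2d10 was 0.03 in place of 0.49. That of Cyp2d9 was 0.22 in place of 0.44, while those of Cyp2e1 and Cyp2f2 were 0.60 and 0.74. In that fit 0 of 10 members passed, where 0.0503% of genes did.

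**Figure D4:**
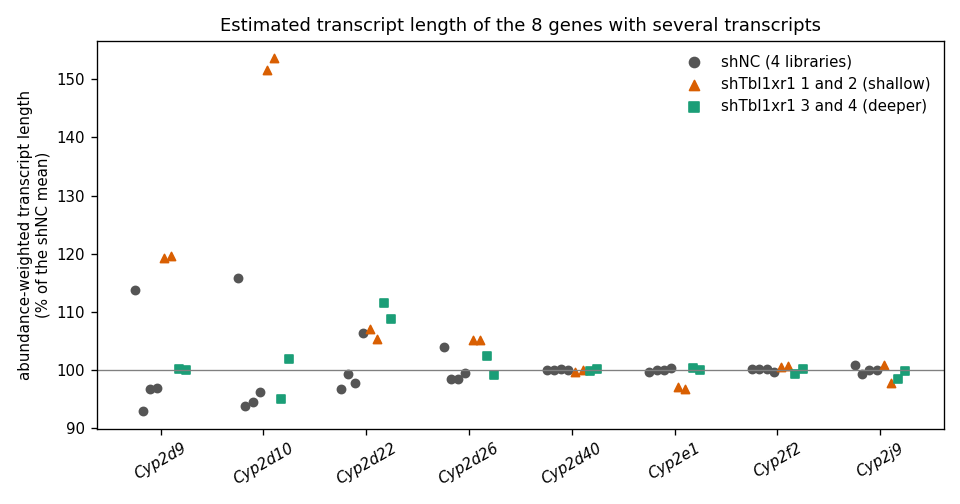
Abundance-weighted transcript length of the 8 genes with several transcripts, as a percentage of the shNC mean, in each library. The triangles of the shallow pair stand highest for Cyp2d10 and Cyp2d9, and the points of Cyp2d40, Cyp2f2 and Cyp2j9 stay close to the line at the shNC mean.

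The partners of these enzymes did not pass the test either. Of 6 electron suppliers (Por, Cyb5a, Cyb5b, Cyb5r3, Pgrmc1, Pgrmc2), 0 passed and all 6 had positive fold changes on TMM-scaled counts, with a median of 0.41. Their median log2 level relative to shNC was 0.56 in the shallow pair and -0.05 in the deeper pair. Por had 229, 239, 276 and 332 CPM in shNC and 379, 401, 365 and 497 CPM in shTbl1xr1 1 to 4. On this scale every shTbl1xr1 library was above every shNC library, where 7.25% of genes had groups that did not overlap, and the log2 fold change was 0.61 (SE 0.20, edgeR adjusted p = 0.345). On TPM, Por was at 101 and 94.3 in the shallow pair, below the shNC range of 115 to 197, and at 224 and 299.9 in the deeper pair, above it. Of 8 enzymes of haem synthesis 0 passed, with a median of -0.02. Cpox, coproporphyrinogen oxidase, had 216 ± 19.7 CPM in shNC and 118 ± 29.1 in shTbl1xr1 (SD, n = 4 each), without overlap (log2 fold change -0.87, SE 0.20, edgeR adjusted p = 0.234). Of 4 epoxide hydrolases, which open the epoxides that Cyp2j enzymes make, 2 were tested and 0 passed, with Ephx1 at 0.63 (SE 0.25, edgeR adjusted p = 0.412) and Ephx2 at -0.32, a median of 0.15.

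Of 13 transcriptional regulators of liver P450 genes, among them Hnf4a, Nr1i2, Nr1i3, Rxra, Cebpa and Stat5b, 0 passed, with a median log2 fold change of -0.15. Foxa2, a pioneer factor of hepatocytes, had the smallest p (log2 fold change 0.66, SE 0.31, edgeR adjusted p = 0.428). Of 10 genes known to be higher in male liver, the class to which Cyp2d9 belongs, 0 passed, with the smallest p for C6 (log2 fold change 0.60, SE 0.16, edgeR adjusted p = 0.298). On TMM-scaled CPM their median log2 level relative to shNC was 1.4999 in the shallow pair and -0.32 in the deeper pair. On TPM, C6 was at 71.7 and 64.0 in the shallow pair, below the shNC range of 90.7 to 105.8. In the deeper pair it was at 151 and 136, above that range. Of 11 genes known to be higher in female liver 2 were tested and 1 passed as lower, Cyp2b9, where 0.0503% of all genes passed in either direction. It had 18.2, 10.6, 3.88 and 23.4 CPM in shNC and 0.376, 0.138, 0 and 0.124 CPM in shTbl1xr1 1 to 4, and the groups do not overlap (edgeR log2 fold change -6.94, SE 0.84, adjusted p = 0.0427). With 0 to 5 counts a library in shTbl1xr1, it entered the test through its shNC counts. No gene passed as lower without the shallow pair, with limma-voom, with TPM in limma, or with any 1 library left out other than shNC 3 or shTbl1xr1 4, so the call was lost there.

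The summed levels of macrophage, stellate cell and endothelial genes were lower in the shallow pair than in any other library, though not for every single gene. The 10 macrophage genes, all at a negative fold change with a median of -0.56, the smallest p for Cd5l and 0 passing, summed to 540.6 to 873 CPM in shNC, 282 and 303 in the shallow pair and 624 and 665 in the deeper pair. The 9 stellate cell genes summed to 268 to 452 CPM in shNC, 122 and 127 in the shallow pair and 289 and 511 in the deeper pair, with 0 passing, a median of -0.29 and the smallest p for Dcn. The 9 endothelial genes summed to 244 to 272 CPM in shNC, 142 and 157 in the shallow pair and 266 and 274 in the deeper pair, with 0 passing, a median of -0.35 and the smallest p for Tek. Of the remaining lists 0 genes passed, with medians of 0.41 for the 7 hepatocyte genes, -0.67 for the 3 of 6 lymphocyte genes tested, 0.33 for the 3 of 5 neutrophil genes tested, 0.57 for the 4 of 5 cholangiocyte genes tested and -0.33 for 4 red blood cell genes. The smallest p of each was that of Hpd, Cd4, S100a8, Epcam and Hbb-bs. The part of these cell markers in the members' values was not tested.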

How the data were processed

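Total RNA of whole liver was sequenced as 8 libraries, 4 shNC and 4 shTbl1xr1. Each deposited table gives 55401 genes with an expected count, TPM, FPKM, length and effective length, per the file headers. Tools named in the submitters' processing notes are STAR, RSEM and DESeq2 1.30.1, with the build mm10. The sources used here give no options, strand setting or annotation release. TPM was used as the authors deposited it to compare levels between genes, and the deposited FPKM values were not used. Identifiers were matched to GENCODE mouse release M21 on GRCm38, with 55141 found without regard to the version suffix.

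Expected counts, which the authors estimated by sharing fragments among transcripts, were rounded and filtered by filterByExpr to 13908 genes. edgeR 4.0.16 (R 4.3.3) gave TMM factors and a robust quasi-likelihood F test of the 2 groups, without covariates, with Benjamini-Hochberg adjustment over all genes tested and a threshold of 0.05. Intervals of 95% use the fit's own degrees of freedom. Log2 levels used a prior count of 2. No 2 libraries held identical values. The members and the 18 gene lists were chosen with earlier results of these data known, and 1 gene of the regulator list is not reported here. The text names all 10 members, Tbl1xr1, the member of each list with the smallest p or past the threshold, and for Cyp2e1 and Cyp2f2 the 3 genes nearest in pattern. Values of Cyp2d12, Axin2, Lgr5, Cyp1a2, Slc1a2 and Ephx2 are given outside that rule, and some further list genes are named as examples. Alternatives covered scaling, filter, test (limma 3.58.1, DESeq2 1.42.0), covariates (sva 3.50.0), summed subfamilies, each library left out and the depth pairs. A limma fit of the TPM and a length offset were added after seeing the data. Promoter sequences are RefSeq's on GRCm38.p6. The tests were tested on simulated data.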

Additional observations from a re-analysis of the deposited data

Results flagged for a closer look

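Cyp2f2 in shTbl1xr1 3 stood far from the rest of its group. Its level there was 185 CPM, against 796, 1045 and 987 CPM in the other 3 shTbl1xr1 libraries, and on the log2 scale, on which the groups were examined, the gap to the nearest of them took more of the group's range than Dixon's 95% limit for 4 samples allows. It was the only one among 20 groups examined (10 genes in 2 groups), and chance marks about 1 in 20. In shNC the lowest Cyp2f2 level, 218 CPM, was in shNC 3.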

How the results depend on the processing

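Between shTbl1xr1 and shNC, 6 genes were higher and 1 lower by edgeR, and 0 members in either direction. Genes higher numbered 3 with library size alone, 12 with no filter on low counts, 248 with DESeq2, 31 with limma-voom and sample weights, 38 with 1 surrogate variable, 3073 with the shallow pair only and 1 with TPM in limma. Genes lower numbered 47 with DESeq2, 0 with limma-voom, 2 with its sample weights, 4 with 1 surrogate variable, 0 without the shallow pair, 3021 with the shallow pair only and 0 with TPM in limma. With 1 library left out, higher genes ranged from 0 to 28 and lower genes from 0 to 6. Members higher numbered 7 with the shallow pair only, and 0 in the other 20 settings. With the replicate number as a block, 4 genes were higher and 1 lower, 0 members passed, and Cyp2j5 stood at -0.018. Same-numbered libraries correlated at 0.379, -0.074, 0.305 and 0.12, so the numbers were not taken as pairs, and the libraries shTbl1xr1 2 and 4 correlated best with other numbers. Of 252 single log2 fold changes over 21 settings, 205 kept direction and side of the threshold, 8 passed it and 39 turned direction. Of the 39, 14 come from TPM in limma and library size alone, which put the median of all genes at -0.34 and -0.27.

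The turned values, none past the threshold, follow by setting. With TPM in limma: Cyp2d9 -0.30, Cyp2d10 -0.47, Cyp2d22 -0.21, Cyp2d26 -0.14, Cyp2d40 -0.50, Cyp2e1 -0.06, Cyp2j5 -0.54, Cyp2j6 -0.35, Cyp2d summed -0.30 and Cyp2j summed -0.52. Without the shallow pair: Cyp2d9 -0.11, Cyp2d40 -1.002, Cyp2e1 -0.33, Cyp2j5 -0.20, Cyp2j9 0.081, Cyp2d summed -0.011 and Cyp2j summed -0.15. With 1 surrogate variable: Cyp2d40 -0.75, Cyp2e1 -0.14, Cyp2j5 -0.14, Cyp2j9 0.063 and Cyp2j summed -0.10. With library size alone: Cyp2d40 -0.17, Cyp2j5 -0.34, Cyp2j6 -0.16 and Cyp2j summed -0.30. Relative to that setting's median gene, Cyp2d40 was at 0.097 and Cyp2j6 at 0.11, which keep their sign, and Cyp2j5 at -0.068. Without turning, Cyp2d9 came to 0.03, Cyp2d10 to 0.089 and Cyp2e1 to 0.13 with library size alone, and Cyp2d9 to 0.0063 and Cyp2d10 to 0.10 with 1 surrogate variable. Cyp2j5 was at -0.077 and Cyp2j summed at -0.049 with upper quartile scaling, and Cyp2j5 was at -0.018 with no filter and -0.012 with the length offset. With 1 library left out, Cyp2d40 ranged from -0.077 to 0.62, Cyp2j5 from -0.089 to 0.15, Cyp2j9 from -0.30 to 0.026 and Cyp2j summed from -0.065 to 0.16. The cause was not tested. With 10895508 and 10728583 counts in the shallow pair, low levels such as that of Cyp2j9 carry most of the counting error.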
